A study of Mus musculus with 12 samples.

Results

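The proteasome is the protease that degrades ubiquitin-tagged proteins, and its genes carry the symbols *Psma* to *Psmg*. Members were every gene symbol in the deposited tables that begins with *Psm*, a letter from a to g and a digit, each read from its transcript with the highest total count. This gave 50 of 24421 gene symbols (60 of 34600 transcripts). RNA-seq had been run on 12 whole kidneys of C57BL/6 male mice at 6 weeks of age, 3 in each of 4 groups, to ask how loss of the DNA demethylase gene *Tet2* bears on renal ischemia-reperfusion (IR). The groups were WT and Tet2-/- mice without an operation (healthy, baseline), and WT and Tet2-/- mice after IR, in which the vessels of the right kidney were clamped for 60 min and the kidney was taken 24 h later. The left kidney was removed during the IR operation and not at baseline, so every IR comparison here also holds the surgery and the nephrectomy. The knockout came from heterozygous breeding pairs and was not limited to a cell type.

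The core of the proteasome is a barrel of stacked alpha and beta rings, and the sites that cut peptides sit on the beta subunits encoded by *Psmb6*, *Psmb7* and *Psmb5*. Under interferon-gamma, and in immune cells, they are replaced by the immunoproteasome subunits of *Psmb9*, *Psmb10* and *Psmb8*, which favor peptides for MHC class I. The regulatory particle (a base with ATPases, and a lid) binds, unfolds and feeds tagged substrates, while activators such as *Psme1* to *Psme4* open the core without it.

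Totals per library ran from 51007362 to 107969879 counts. *Tet2* itself was read at 6.25 to 9.15 FPKM in WT baseline, 9.24 to 16.6 in Tet2-/- baseline, 3.85 to 9.34 in WT IR and 1.76 to 3.2 in Tet2-/- IR, so at baseline its level was not lower in the libraries labelled Tet2-/-, and the group names below are the labels. FPKM is a count scaled to transcript length and library size, and allows levels of different genes to be compared. Replicate 3 of Tet2-/- IR stood apart: its 11 kidney tubule and glomerulus markers summed to 1113 FPKM, against 2947 to 4196 in the other libraries. Its 8 adipocyte markers, none at 0 there, summed to 602 FPKM, against 15.0 to 279. Of that sum 444.88 FPKM came from *Fabp4* alone. *Adipoq*, *Plin1* and *Ucp1* were higher in WT baseline replicate 3, while *Fabp4*, *Cfd*, *Cidec*, *Lep* and *Retn* were lower there. The adipocyte signal was thus not confined to Tet2-/- IR replicate 3. Counts of called genes in the comparisons that hold Tet2-/- IR replicate 3 were also made without it.

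In unoperated kidneys the constitutive core was abundant and the immunoproteasome was scarce. The 14 constitutive core genes had mean FPKM in WT baseline from 10.5 (*Psma3*) to 160.5 (*Psmb4*), and the 3 immunoproteasome genes from 3.98 (*Psmb9*) to 7.27 (*Psmb10*). The base ATPase genes lay between 40.1 (*Psmc6*) and 87.7 FPKM (*Psmc3*). The genes of tissue-restricted subunits were at or near the floor: *Psma8*, the alpha subunit of testis, had at most 25 counts in any library, and *Psmb11*, the beta subunit of the thymus, at most 5.5. *Psmc3ip*, which the symbol rule takes in, encodes a protein of meiotic recombination and no subunit, and stood between 2.31 and 4.70 FPKM. Of the 50 symbols, 49 passed edgeR's filter on low counts for the IR comparison in WT and 48 for that in Tet2-/-.

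Together the 50 genes took a larger share of all counts after IR. The share was 0.434%, 0.459% and 0.410% in the 3 WT baseline libraries and 0.472%, 0.442% and 0.450% in the 3 Tet2-/- baseline libraries. It was 0.552%, 0.547% and 0.587% in WT IR and 0.588%, 0.572% and 0.722% in Tet2-/- IR. No IR library overlapped a baseline library of either genotype, and the 0.722% belonged to the library that stood apart. A share of counts also moves with what other genes do, and the tests below use TMM normalization to set the libraries on 1 scale. Fewer cells of a type and less RNA per cell cannot be told apart in whole-kidney RNA.

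**Figure D1:**
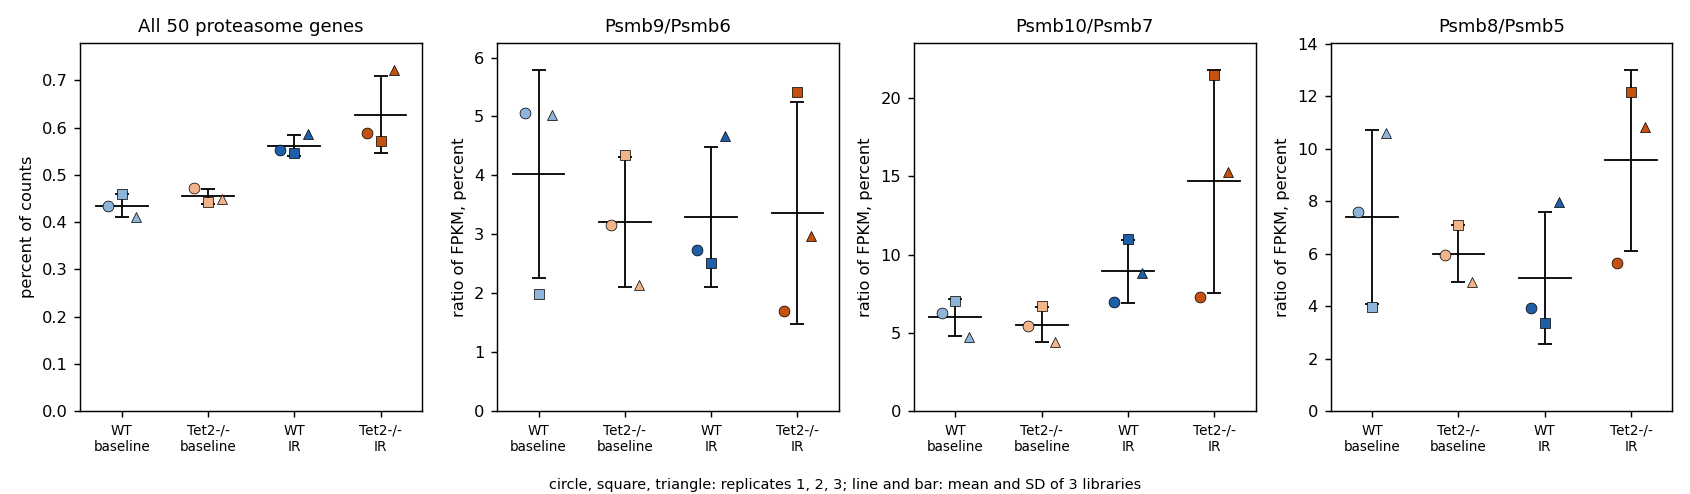
Percent of counts in the 50 proteasome genes (left) and the ratio in FPKM, in percent, of each immunoproteasome gene to the constitutive gene of the same catalytic position (right 3 panels), for the 12 libraries by group. The share of counts lies between 0.410% and 0.472% at baseline and between 0.547% and 0.722% after IR, and only for *Psmb10* over *Psmb7* do the ratios of WT IR and of Tet2-/- IR lie above all those of Tet2-/- baseline. In that ratio WT IR (from 6.96%) overlaps WT baseline (up to 7.02%).

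After IR, 4 of 8 lid genes and 2 of 9 base genes of the regulatory particle were called higher in Tet2-/-, and 2 lid genes in WT. In the same fits 0 of the 14 constitutive core genes were called, though other fits called some of them, and the difference between classes was not tested. In WT kidneys 2 members were called higher (edgeR's quasi-likelihood test, Benjamini-Hochberg adjusted p under 0.05 over 16015 genes), both lid genes, against 1.88% of all genes tested, and 0 were called lower, against 1.14%. At an unadjusted p under 0.05 there were 20 of 49 members, all higher, beside 3640 of 16015 genes in either direction. DESeq2 called 10 members higher in WT, adding *Psmd1*, *Psmd2*, *Psmd7*, *Psmd12*, *Psme3*, *Psmb10*, *Psma1* and *Psma3*, and limma on log2(FPKM + 1) and on log2(FPKM + 0.1) (both limma fits below) called 6 and 8. In Tet2-/- kidneys 10 of 48 members were called higher and 1 lower, where 22.9% of all genes were called higher and 20.3% lower. The higher calls thus came at about the rate of all genes, and the lower calls were few. An unadjusted p under 0.05 was reached there by 13 of 48 members, beside 8481 of 16358 genes, in either direction. The median fitted log2 fold change was 0.26 over the members and -0.03 over all genes in WT, and 0.21 and 0.04 in Tet2-/-. On TMM-scaled counts, 25 of 49 members in WT had all 3 IR libraries above all 3 baseline libraries (14.8% of all genes) and 0 below (14.5%). In Tet2-/- it was 13 above (29.5%) and 2 below (27.2%). The 10 higher members were 4 lid genes, 2 non-ATPase genes of the base, 2 assembly chaperones of the base, the activator gene *Psme3* and the immunoproteasome gene *Psmb10*, and only *Psmd11* and *Psmb10* exceeded a log2 fold change of 1. Without replicate 3 of Tet2-/- IR, 8 members were called higher and 4 lower (*Psma4*, *Psmb1*, *Psmg1* and *Psmg2*), the members' median log2 fold change in Tet2-/- was 0.04, that of all genes also 0.04, and 12 members lay above (35.1% of all genes) and 8 below (32.5%).

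**Figure D2:**
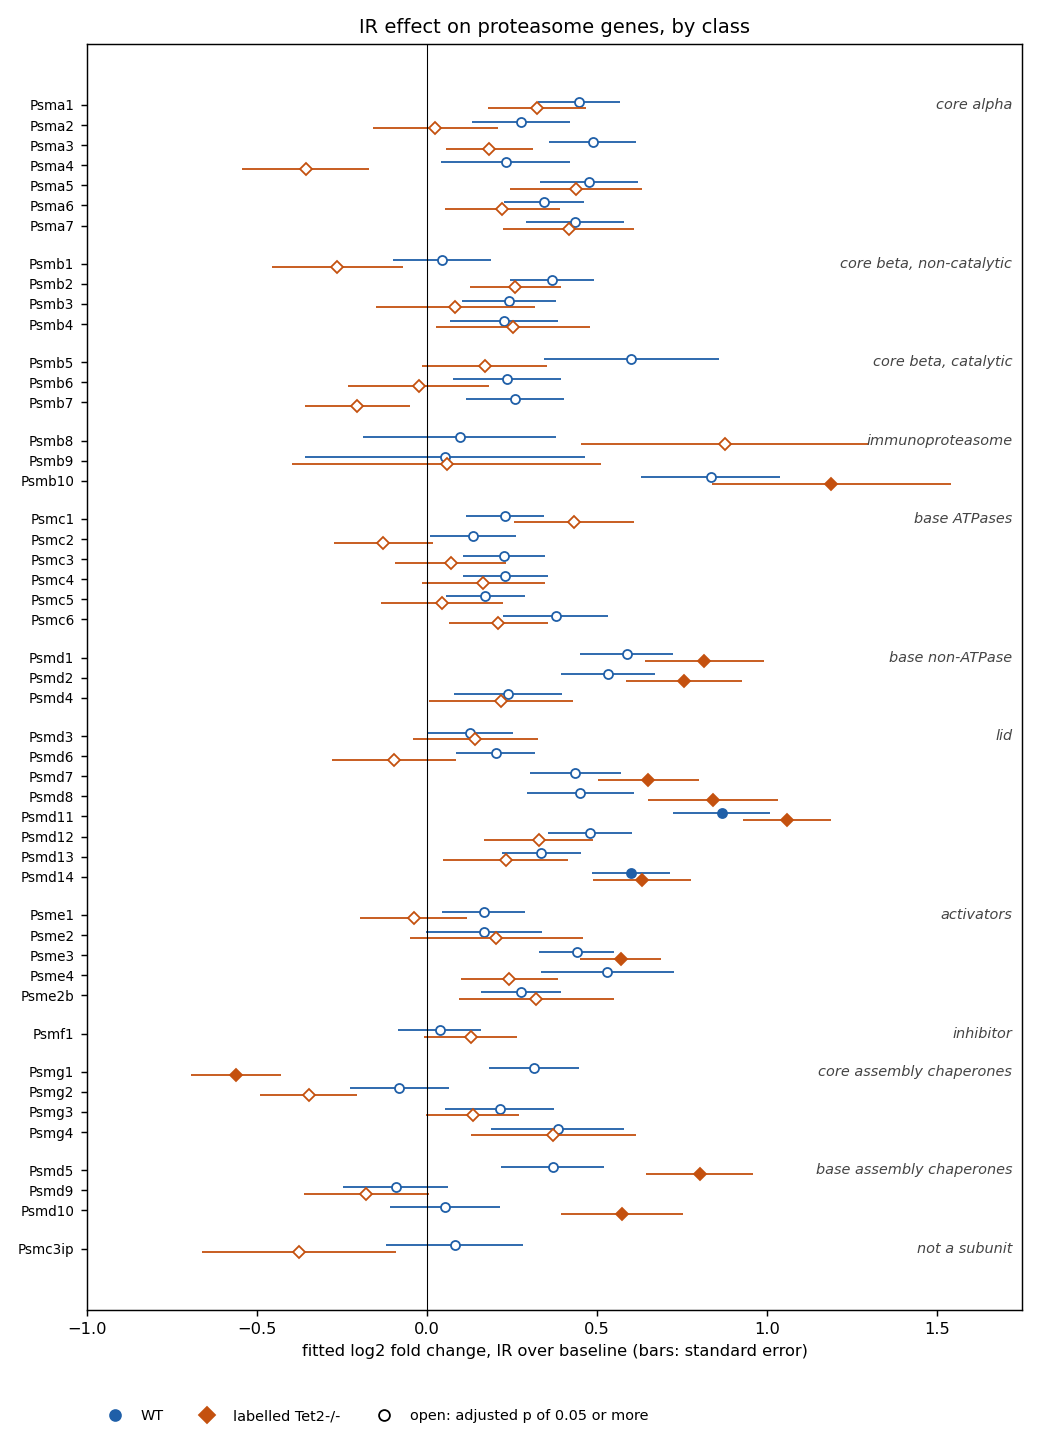
Fitted log2 fold change of IR over baseline (x axis, bars are standard errors) for each proteasome gene other than *Psma8* and *Psmb11* (y axis), by class, in WT (blue circles) and in the libraries labelled Tet2-/- (orange diamonds). Filled symbols have an adjusted p under 0.05: *Psmd11* and *Psmd14* in WT, and 10 genes above 0 and *Psmg1* below 0 in Tet2-/-.

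The lid, which removes the ubiquitin chain, held the 2 genes called in both genotypes. *Psmd11*, a scaffold subunit of the lid, had FPKM of 16.3, 15.4 and 19.4 in WT baseline, 15.2, 18.4 and 15.4 in Tet2-/- baseline, 29.9, 34.3 and 33.02 in WT IR and 42.8, 39.3 and 39.8 in Tet2-/- IR. The IR libraries were all above the baseline libraries of both genotypes, and those of Tet2-/- IR all above those of WT IR in FPKM, though not on TMM-scaled counts. The fitted log2 fold change was 0.87 ± 0.14 (SE, 3 against 3 libraries) in WT, edgeR adjusted p = 0.0324, and 1.06 ± 0.13 in Tet2-/-, edgeR adjusted p = 0.000799. The genotype difference in this response, a log2 value of 0.23 ± 0.20, did not pass (edgeR adjusted p = 0.475). *Psmd14*, the deubiquitinase of the lid, had FPKM of 29.4, 27.2 and 27.4 in WT baseline, 25.8, 30.02 and 29.3 in Tet2-/- baseline, 44.2, 42.6 and 45.8 in WT IR and 51.5, 48.7 and 56.9 in Tet2-/- IR. Here too no IR library overlapped a baseline library. It rose by 0.60 ± 0.11 in WT (edgeR adjusted p = 0.0439) and 0.63 ± 0.14 in Tet2-/- (edgeR adjusted p = 0.0108), both on the log2 scale. Both WT calls were near the threshold: leaving out any 1 of the 6 libraries other than WT IR replicate 1 left 0 members called in WT, and leaving out that one left *Psmd11* and brought in *Psmb10*.

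The other lid genes split. *Psmd8*, a structural lid subunit, had FPKM of 64.97, 69.3 and 69.7 in WT baseline, 60.4, 65.5 and 67.7 in Tet2-/- baseline, 80.3, 106 and 103 in WT IR and 136, 114 and 160.5 in Tet2-/- IR. *Psmd7*, the partner of the deubiquitinase, had FPKM of 39.8, 42.3 and 46.02 in WT baseline, 38.3, 44.5 and 42.02 in Tet2-/- baseline, 55.1, 62.3 and 63.1 in WT IR and 75.9, 72.4 and 84.98 in Tet2-/- IR. In both genes every IR library lay above every baseline library. In Tet2-/- *Psmd8* rose by 0.84 ± 0.19 (edgeR adjusted p = 0.0104) and *Psmd7* by 0.65 ± 0.15 (edgeR adjusted p = 0.0108) on the log2 scale, and in WT their log2 fold changes of 0.45 and 0.44 did not pass (edgeR adjusted p = 0.157 and 0.125). The remaining 4 lid genes, *Psmd3*, *Psmd6*, *Psmd12* and *Psmd13*, were not called by edgeR with TMM on the 6 libraries of either genotype, with log2 fold changes in Tet2-/- from -0.10 (*Psmd6*) to 0.33 (*Psmd12*). *Psmd12* was called in WT by DESeq2 and both limma fits, and *Psmd12* and *Psmd13* in Tet2-/- by both limma fits and with library sizes alone, *Psmd12* also without Tet2-/- IR replicate 2. *Psmd8*, *Psmd7*, *Psmd2*, *Psmd10*, the alpha, ATPase and remaining lid genes, *Psmb1* and *Psmd9* fall outside the naming rule and were named after their values were seen.

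In the base, the large scaffold genes *Psmd1* and *Psmd2* rose in Tet2-/-. *Psmd1*, which holds a ubiquitin receptor, had FPKM of 28.6, 24.1 and 30.1 in WT baseline, 25.04, 27.00 and 24.1 in Tet2-/- baseline, 41.4, 46.6 and 42.01 in WT IR and 54.2, 44.6 and 59.9 in Tet2-/- IR. *Psmd2*, its structural relative, had FPKM of 49.8, 47.9 and 58.4 in WT baseline, 46.8, 49.6 and 48.95 in Tet2-/- baseline, 76.4, 81.3 and 77.9 in WT IR and 96.6, 85.8 and 109 in Tet2-/- IR. For both, all IR libraries exceeded all baseline libraries of either genotype. *Psmd1* rose by 0.81 ± 0.17 (edgeR adjusted p = 0.00834) and *Psmd2* by 0.75 ± 0.17 (edgeR adjusted p = 0.01) on the log2 scale in Tet2-/-, and their WT values of 0.59 and 0.53 did not pass (edgeR adjusted p = 0.0731 and 0.0879). Of the 6 ATPase genes, 0 were called by edgeR in either genotype, with 1 under an unadjusted p of 0.05 in each and 0 called by DESeq2. In Tet2-/- *Psmc1* was called with all 12 libraries in 1 fit and without IR replicate 2, and *Psmc1* and *Psmc6* with library sizes alone and by both limma fits. Their log2 fold changes ran from 0.13 to 0.38 in WT and from -0.13 to 0.43 in Tet2-/-.

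Of the 3 assembly chaperones of the base, *Psmd5* and *Psmd10* were called higher in Tet2-/-. *Psmd5*, which holds a base ATPase until assembly, had FPKM of 17.2, 20.5 and 23.8 in WT baseline, 12.4, 15.8 and 15.4 in Tet2-/- baseline, 26.4, 28.5 and 27.9 in WT IR and 26.3, 31.5 and 32.97 in Tet2-/- IR. The Tet2-/- baseline libraries were all below those of WT baseline, and the IR libraries of both genotypes lay together. It rose by 0.80 ± 0.16 on the log2 scale in Tet2-/- (edgeR adjusted p = 0.00564), with 0.37 ± 0.15 in WT (edgeR adjusted p = 0.207), and the difference of 0.47 ± 0.22 between genotypes did not pass (edgeR adjusted p = 0.196). *Psmd10* (gankyrin) had FPKM of 15.8, 16.5 and 14.5 in WT baseline, 12.4, 12.01 and 13.4 in Tet2-/- baseline, 14.1, 17.6 and 18.7 in WT IR and 18.5, 21.5 and 26.8 in Tet2-/- IR, and rose by 0.57 ± 0.18 in Tet2-/- (edgeR adjusted p = 0.0361), a call lost without Tet2-/- IR replicate 3 (log2 fold change 0.35, edgeR adjusted p = 0.0551) or without any of the 3 Tet2-/- baseline libraries. *Psmd9*, the third of this class, had log2 fold changes of -0.09 in WT and -0.18 in Tet2-/- (edgeR adjusted p = 0.762 and 0.46).

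**Figure D3:**
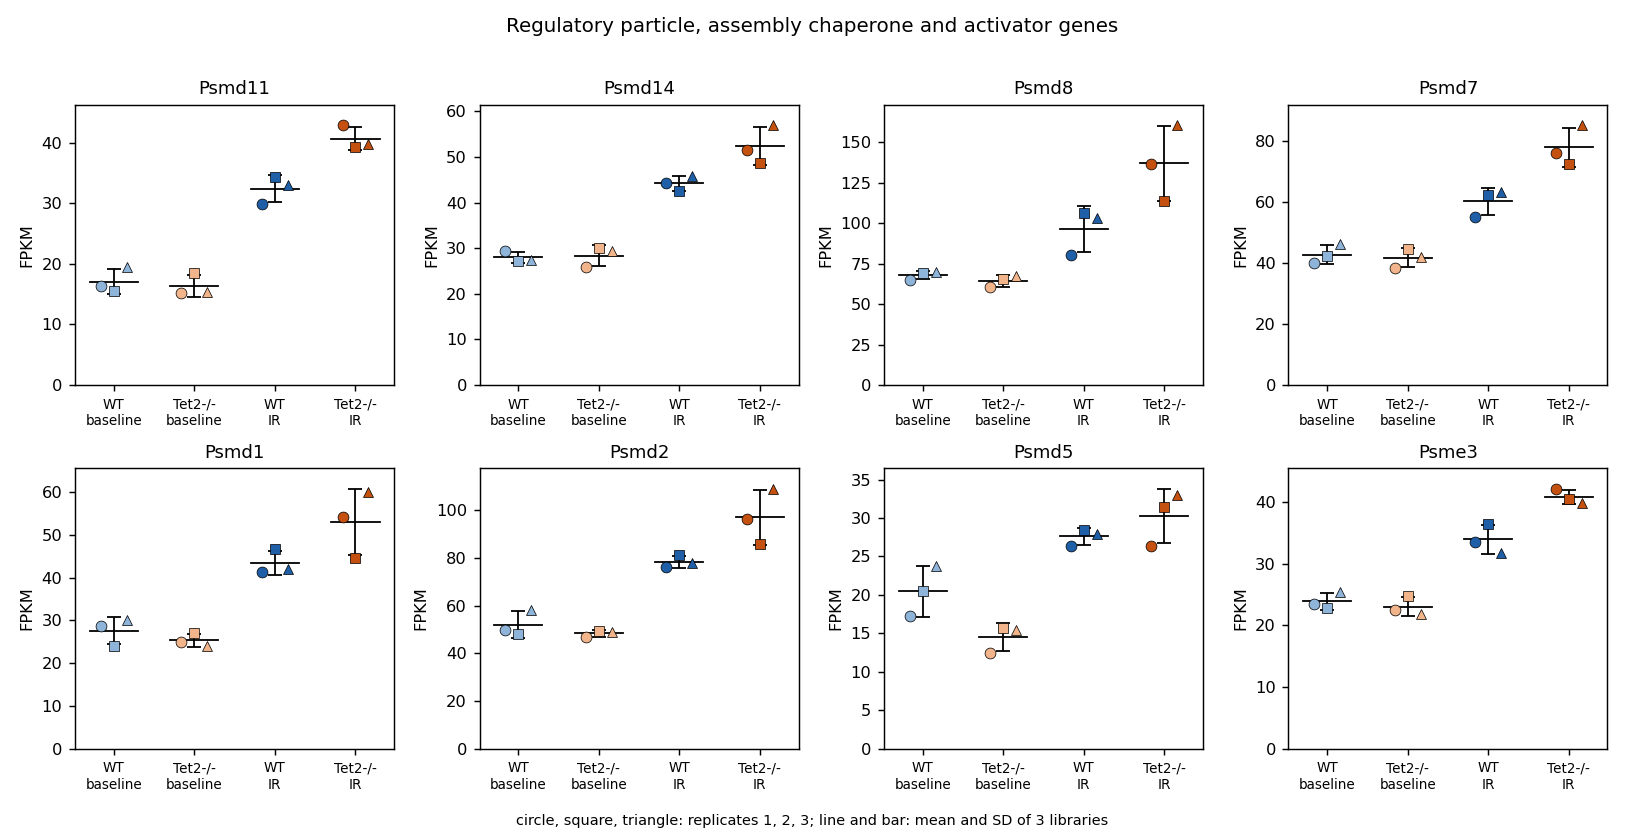
FPKM (y axis, from 0) of 8 regulatory particle, assembly chaperone and activator genes in each of the 12 libraries by group, with mean and SD of 3 libraries. In *Psmd11*, *Psmd14*, *Psmd8*, *Psmd7*, *Psmd1*, *Psmd2*, *Psmd5* and *Psme3* all 6 IR libraries lie above all 6 baseline libraries in FPKM, which is not TMM-scaled. The share of all genes that do so was not counted.

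The 8 genes of this plot are the members that kept their call in Tet2-/- in all 15 fits made without a fold limit, including those that left out a library. All 8 were among the members called higher in Tet2-/-, so the gap in the plot is no separate support. How many of all genes kept a call in every fit was not counted.

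In the constitutive core, 0 of 14 genes were called by edgeR with TMM on the 6 libraries of either genotype. In WT all 14 had a positive log2 fold change with a median of 0.31, 6 had an unadjusted p under 0.05, and DESeq2 called 2 of them (*Psma1* and *Psma3*, named after their values were seen). In Tet2-/- 10 were positive with a median of 0.18, 0 had an unadjusted p under 0.05, and DESeq2 called 0. Other TMM fits with edgeR did call core genes: *Psmb5* in WT with the replicate block, *Psma3* in WT and *Psma1* and *Psma5* in Tet2-/- with all 12 libraries, *Psma1*, *Psma5* and *Psma7* higher without Tet2-/- IR replicate 2, and *Psma4* and *Psmb1* lower without replicate 3. When only library sizes set the scale, and by both limma fits, 6 of the 14 were called higher in Tet2-/-, and the former scaling moved the median of all genes by 0.23 on the log2 scale.

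Of the 3 catalytic positions, *Psmb6* (caspase-like activity) had FPKM of 102, 125 and 86.03 in WT baseline, 124, 101 and 117 in Tet2-/- baseline, 131, 119.8 and 132 in WT IR and 107, 125 and 166 in Tet2-/- IR. *Psmb7* (trypsin-like activity) had FPKM of 128, 112 and 126 in WT baseline, 131, 129 and 135 in Tet2-/- baseline, 154, 139 and 163 in WT IR and 131, 124 and 152 in Tet2-/- IR. *Psmb5* (chymotrypsin-like activity) had FPKM of 108, 121 and 63.7 in WT baseline, 95.5, 114 and 83.7 in Tet2-/- baseline, 188, 166 and 112 in WT IR and 101, 149.8 and 142 in Tet2-/- IR. The groups overlapped in *Psmb5* and *Psmb6*. For *Psmb7* the WT IR libraries lay above all others but 1, Tet2-/- IR replicate 3, in FPKM. On TMM-scaled counts WT IR overlapped WT baseline in *Psmb7*. In WT the log2 fold changes were 0.24 ± 0.16, 0.26 ± 0.14 and 0.60 ± 0.26 for *Psmb6*, *Psmb7* and *Psmb5* (edgeR adjusted p = 0.417, 0.335 and 0.223). In Tet2-/- they were -0.02 ± 0.21, -0.21 ± 0.15 and 0.17 ± 0.19 (edgeR adjusted p = 0.935, 0.31 and 0.488), and those of *Psmb6* and *Psmb7* were positive with library sizes alone. Pairing libraries by replicate number brought *Psmb5* in WT past the threshold, at a log2 fold change of 0.63 (edgeR adjusted p = 0.0459).

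Among the immunoproteasome genes edgeR called *Psmb10*, in Tet2-/-, and not the other two. *Psmb8* (mm9 chr17:34335140-34338399, plus strand) and *Psmb9* (chr17:34319044-34324275, minus strand) lie in the MHC region, and *Psmb10* (chr8:108459628-108462292, minus strand) outside it. *Psmb10* had FPKM of 8.03, 7.86 and 5.92 in WT baseline, 7.15, 8.65 and 5.99 in Tet2-/- baseline, 10.7, 15.3 and 14.4 in WT IR and 9.58, 26.8 and 23.2 in Tet2-/- IR. All IR libraries were above all baseline libraries in FPKM, while on TMM-scaled counts Tet2-/- IR overlapped Tet2-/- baseline. It rose by 1.19 ± 0.35 on the log2 scale in Tet2-/- (edgeR adjusted p = 0.0285), and its WT value of 0.83 ± 0.20 did not pass (edgeR adjusted p = 0.0792). The Tet2-/- call was lost without any 1 of the 3 baseline libraries or without IR replicate 2 or 3 (adjusted p 0.0509 to 0.0931 by edgeR), and the genotype difference in the response was 0.39 ± 0.44 (edgeR adjusted p = 0.604).

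*Psmb8* had FPKM of 8.20, 4.83 and 6.75 in WT baseline, 5.68, 8.08 and 4.13 in Tet2-/- baseline, 7.39, 5.57 and 8.90 in WT IR and 5.74, 18.2 and 15.4 in Tet2-/- IR. Replicates 2 and 3 of Tet2-/- IR exceeded all other libraries, while replicate 1 lay within the baseline range. Its log2 fold change in Tet2-/- was 0.87 ± 0.42 (edgeR adjusted p = 0.13), and 1.22 without replicate 1 of Tet2-/- IR (edgeR adjusted p = 0.0163). *Psmb9* had FPKM of 5.15, 2.47 and 4.32 in WT baseline, 3.91, 4.40 and 2.49 in Tet2-/- baseline, 3.57, 3 and 6.15 in WT IR and 1.82, 6.78 and 4.91 in Tet2-/- IR, with all groups overlapping and log2 fold changes of 0.05 ± 0.41 in WT and 0.06 ± 0.45 in Tet2-/- (edgeR adjusted p = 0.954 and 0.931).

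Relative to the constitutive gene of the same position, *Psmb10* was 4.71% to 7.02% of *Psmb7* in WT baseline and 4.43% to 6.69% in Tet2-/- baseline. It was 6.96% to 11.002% in WT IR and 7.31% to 21.5% in Tet2-/- IR. *Psmb8* ranged from 3.35% of *Psmb5* (a WT IR library) to 12.2% (a Tet2-/- IR library) and *Psmb9* from 1.70% to 5.41% of *Psmb6* (both Tet2-/- IR), with all 4 groups overlapping. In each library all 3 immunoproteasome genes stayed below their constitutive counterparts.

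Leukocytes, which carry the immunoproteasome, were read from 19 of 20 listed markers, none of them at 0 in any library. These summed to 46.5 to 89.5 FPKM in the baseline groups, 56.6 to 80.5 in WT IR and 137 to 201 in Tet2-/- IR. The sum in Tet2-/- IR rested on a few myeloid genes, *S100a8*, *S100a9* and *Cd14* above all. Of the 19 markers 8 had a positive and 11 a negative log2 fold change in Tet2-/-, with a median of -0.21. There edgeR called 6 higher and 3 lower (*Csf1r*, *Cd8a* and *Nkg7*), beside 22.9% and 20.3% of all genes. Without Tet2-/- IR replicate 3 the median was 0.27, with 6 higher and 4 lower. Between genotypes after IR, 13 of 17 tested markers were positive, with 4 called higher (3.51% of all genes) and 0 lower (6.17%). Without that library 3 were called higher and 0 lower, and the median went from 0.57 to 1.36. The sums of Tet2-/- IR replicates 1 and 2 were nearly equal, at 201 and 199, but the single markers were not. *Cd14*, *S100a8*, *S100a9* and *Ly6g* were higher in replicate 1. Every other marker was higher in replicate 2, among them *Ptprc* (0.934 and 2.66 FPKM in replicates 1 and 2) and *H2-Ab1* (13.4 and 23.9 FPKM). Replicate 1 had the lowest *Psmb8*, *Psmb9* and *Psmb10* of that group and replicate 2 the highest. The 8 tubular injury markers summed to 303 to 604 FPKM at baseline, 1810 to 8084 in WT IR and 12137 to 26231 in Tet2-/- IR. The part of either in the proteasome values was not tested.

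**Figure D4:**
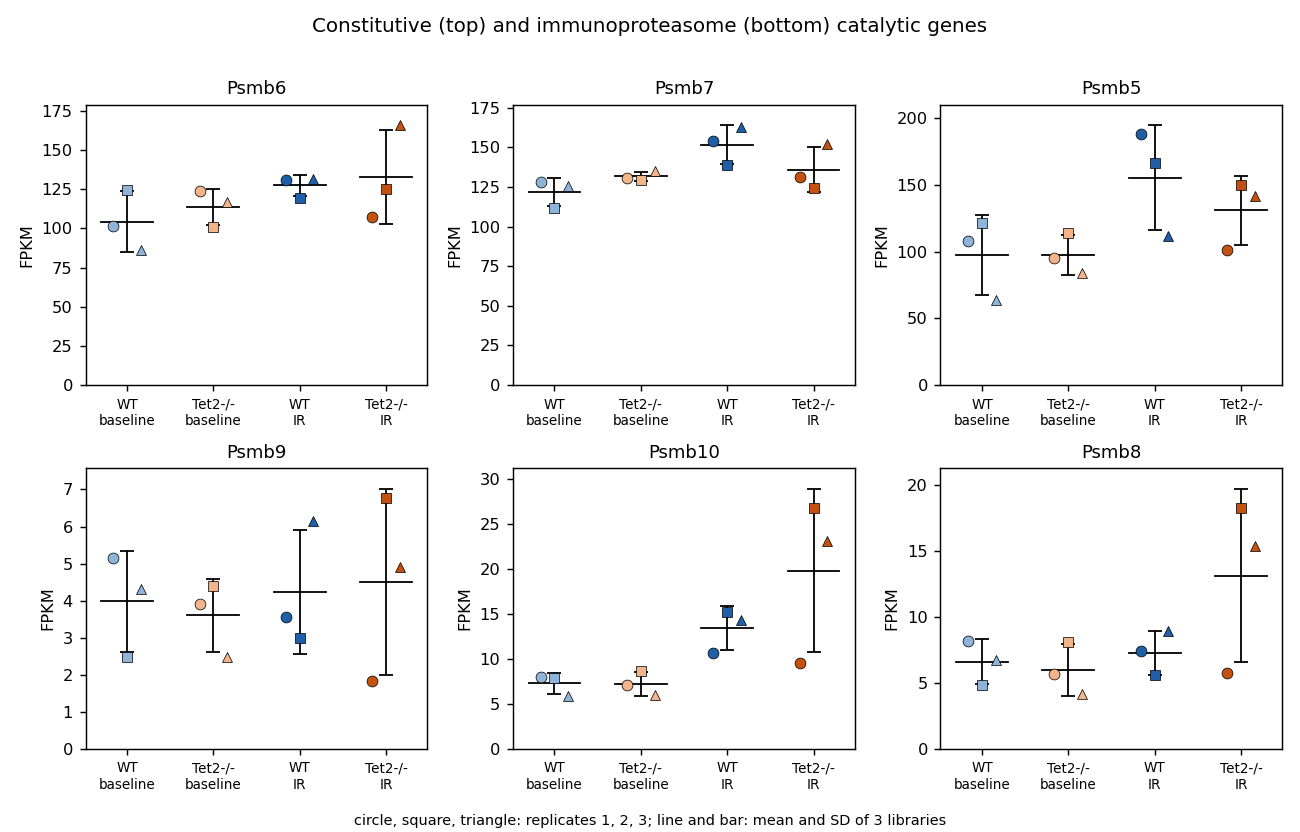
FPKM (y axis, from 0, its own scale in each panel) of the constitutive catalytic genes (top) and the immunoproteasome genes of the same positions (bottom) in the 12 libraries by group, with mean and SD of 3 libraries. *Psmb10* and *Psmb8* reach 26.8 and 18.2 FPKM in Tet2-/- IR replicate 2, and replicate 1 of that group is the lowest of its 3 in all immunoproteasome genes.

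Of the activators, edgeR called *Psme3*, in Tet2-/-. *Psme3*, the nuclear activator PA28 gamma, had FPKM of 23.5, 22.8 and 25.5 in WT baseline, 22.5, 24.8 and 21.9 in Tet2-/- baseline, 33.6, 36.5 and 31.7 in WT IR and 42.1, 40.5 and 39.9 in Tet2-/- IR, with every IR library above every baseline library and Tet2-/- IR above WT IR. It rose by 0.57 ± 0.12 on the log2 scale in Tet2-/- (edgeR adjusted p = 0.00734), and its WT value was 0.44 ± 0.11 (edgeR adjusted p = 0.0803). The interferon-inducible PA28 genes lie close together on chromosome 14. *Psme1* had FPKM of 41.1, 36.7 and 33.8 in WT baseline, 47.1, 42.4 and 42.2 in Tet2-/- baseline, 41.7, 44.1 and 44.5 in WT IR and 39.6, 59.2 and 54.4 in Tet2-/- IR. *Psme2* had FPKM of 15.6, 18.1 and 13.5 in WT baseline, 18.7, 15.7 and 15.6 in Tet2-/- baseline, 16.1, 19.6 and 19.4 in WT IR and 14.3, 26.6 and 27.8 in Tet2-/- IR. In both, replicates 2 and 3 of Tet2-/- IR were the highest of the 12 libraries and replicate 1 was not. Neither was called: *Psme1* gave log2 fold changes of 0.17 in WT and -0.04 in Tet2-/- (edgeR adjusted p = 0.458 and 0.856), and *Psme2* gave 0.17 and 0.20 (edgeR adjusted p = 0.598 and 0.544).

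*Psme2b*, a copy of *Psme2* on chromosome 11, is 99.3% identical to it over the coding sequence, so reads of the pair may have been shared and each value is uncertain. It was read at 25.3 to 49.0 FPKM and was not called by edgeR with all 6 libraries of either genotype (it was in Tet2-/- without IR replicate 1). *Psme4* (PA200, the activator of core particles on acetylated histones) had FPKM of 16.7, 14.98 and 22.5 in WT baseline, 14.5, 18.7 and 16.3 in Tet2-/- baseline, 24.5, 28.7 and 28.4 in WT IR and 23.8, 23.6 and 22.7 in Tet2-/- IR. It was the member whose Tet2-/- IR libraries were all below those of WT IR without a call, at log2 fold changes of 0.53 ± 0.20 in WT and 0.24 ± 0.14 in Tet2-/- (edgeR adjusted p = 0.173 and 0.204). *Psmf1*, the inhibitor PI31, stood between 6.08 and 9.56 FPKM, with log2 fold changes of 0.04 and 0.13 (edgeR adjusted p = 0.886 and 0.474). In Tet2-/- *Psme4* and *Psmf1* were called higher with library sizes alone and by both limma fits, *Psmf1* at 0.33 to 0.37 (adjusted p 0.0356 to 0.038 by edgeR or limma).

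Of the genes above, *Psmd11*, *Psmd2*, *Psmb5* and *Psma4* also have 1 near-identical copy each elsewhere in mm9 (at 95% identity or more over at least 50% of the coding sequence), *Psma5* and *Psmc1* have 2 and *Psma3* has 3, and 10 of the 50 members have at least 1, so their values are uncertain to that extent. How reads shared by such copies were counted was not given in the sources used here.

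The core assembly chaperones held the member that edgeR called between genotypes. *Psmg1*, which with *Psmg2* guides the assembly of the alpha ring, had FPKM of 22.9, 26.6 and 21.2 in WT baseline, 27.8, 23.98 and 25.7 in Tet2-/- baseline, 34.5, 28.3 and 28.9 in WT IR and 18.1, 23.1 and 21.5 in Tet2-/- IR. The WT IR libraries were all above the WT baseline libraries, and the Tet2-/- IR libraries all below the Tet2-/- baseline libraries and below WT IR. Its log2 fold change was 0.31 ± 0.13 in WT (edgeR adjusted p = 0.215), and in Tet2-/- it fell, at -0.56 ± 0.13 (edgeR adjusted p = 0.012). The interaction of genotype and IR was -0.84 ± 0.18 (edgeR adjusted p = 0.0166, 12 libraries), 1 of 49 members called lower and 0 called higher, against 5.38% and 3.78% of all genes (higher: 0 by DESeq2, and 1, *Psmd10*, at an unadjusted p under 0.05). This interaction was called in all 20 fits made without a fold limit, including each that left out a library. After IR the Tet2-/- libraries were lower than WT, at -0.65 ± 0.14 on the log2 scale (edgeR adjusted p = 0.0381), a call that held in 1 of the 6 fits that left out a library (the one without WT IR replicate 2). It was lost with the replicate block (paired libraries, edgeR adjusted p = 0.0598), with library sizes alone (edgeR adjusted p = 0.057) and by limma on log2(FPKM + 1) (adjusted p = 0.0525). The fall in Tet2-/- was lost with library sizes alone (log2 fold change -0.34, edgeR adjusted p = 0.0795), by both limma fits (-0.30 and -0.31, adjusted p = 0.0784 and 0.0777) and without Tet2-/- baseline replicate 3.

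Its partner *Psmg2* had 3 Tet2-/- IR libraries below those of Tet2-/- baseline on TMM-scaled counts, at a log2 fold change of -0.35 ± 0.14 that did not pass (edgeR adjusted p = 0.0835). It was called lower without Tet2-/- IR replicate 3. *Psmg3* and *Psmg4* were not called by edgeR (*Psmg3* was, higher in Tet2-/-, by both limma fits). *Psmg2* was named after its values were seen.

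**Figure D5:**
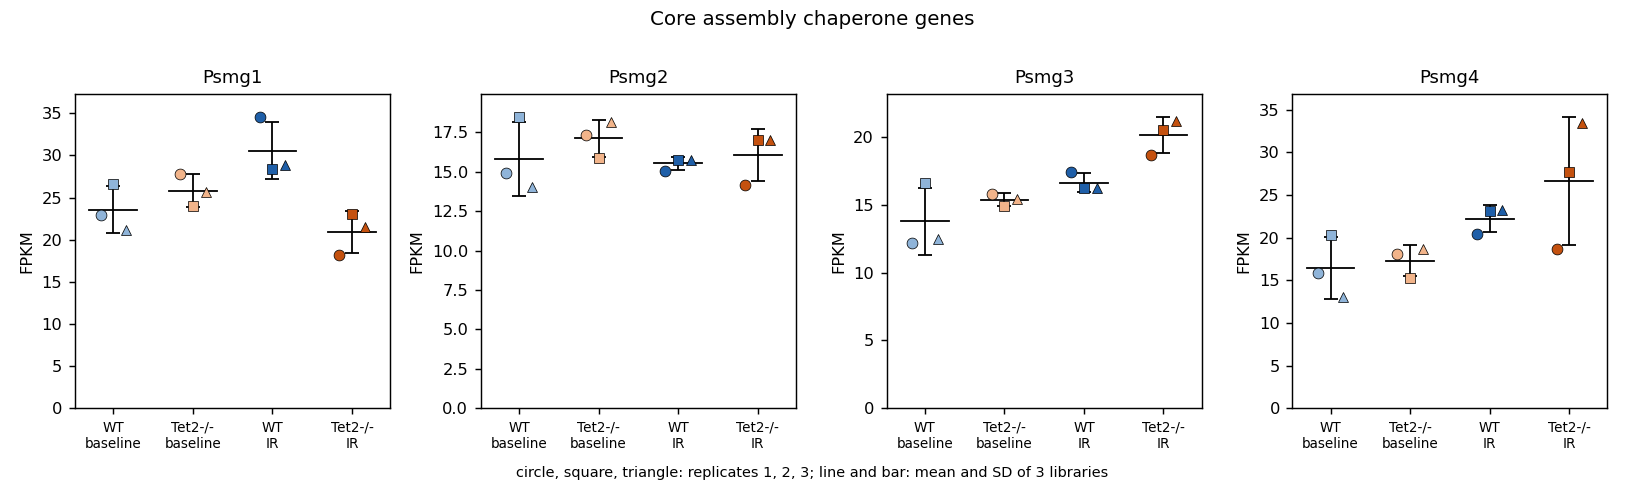
FPKM (y axis, from 0) of the 4 core assembly chaperone genes in the 12 libraries by group, with mean and SD of 3 libraries. *Psmg1* ranges from 28.3 to 34.5 FPKM in WT IR and from 18.1 to 23.1 in Tet2-/- IR.

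Between genotypes at baseline, edgeR called 0 of 48 members in either direction, against 0.0124% of all genes higher and 0% lower. DESeq2 and limma also called 0. An unadjusted edgeR p under 0.05 was reached by 2 members, beside 1891 of 16086 genes. Those 2 were *Psme1*, at a log2 value of 0.33 ± 0.11 (Tet2-/- over WT, edgeR adjusted p = 0.329), and *Psmd5*, at -0.41 ± 0.16 (edgeR adjusted p = 0.399). Groups did not overlap for 8 members that were higher (7.93% of all genes) and 2 that were lower (10.8%) in Tet2-/-. After IR edgeR called 0 of 48 members higher (3.51% of all genes) and 1 lower (6.17%), *Psmg1*, and DESeq2 called 0 higher. An unadjusted edgeR p under 0.05 was reached by 1 of 48 members, *Psmg1*, beside 4671 of 16186 genes in either direction. On TMM-scaled counts 1 member, *Psme3*, had all Tet2-/- IR libraries above WT IR (17.5% of all genes) and 2, *Psmg1* and *Psme4*, had all below (18.5%), and without Tet2-/- IR replicate 3 edgeR called 0 and these counts were 1 (25.0%) and 11 (25.4%). The largest genotype difference after IR in absolute size was that of *Psmb8*, 0.72 ± 0.43, which did not pass (edgeR adjusted p = 0.307). These comparisons share libraries with the IR comparisons above. In the interaction the largest value was that of *Psma8*, with 1 to 25 counts a library, too few to give a fold.

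Transcription of proteasome genes is raised by the factors of *Nfe2l1* and *Nfe2l2* through the antioxidant response element, here searched as TGACNNNGC, on both strands, in the 250 bases before each transcript start in mm9. It was found before 7 of the 50 members (14.0%) and 10.6% of 24351 genes. The 7 matches are shown because they fall on subunits of the core (*Psmb2*, *Psmb5*, *Psmb6*), the base (*Psmc6*) and the lid (*Psmd12*, *Psmd7*) and on the chaperone *Psmd9*. Of these genes, edgeR with TMM on the 6 libraries of either genotype called only *Psmd7*, in Tet2-/-. Other fits also called *Psmb2*, *Psmb5*, *Psmc6* or *Psmd12*. Each match is written 5′ to 3′ on the gene's strand with up to 20 bases on either side inside the window, and capitals mark the match (its reverse complement where it lies on the other strand).
Psmb2 (mm9 chr4:126354853-126354886, plus strand): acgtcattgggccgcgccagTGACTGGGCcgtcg
Psmb5 (mm9 chr14:55236851-55236899, minus strand): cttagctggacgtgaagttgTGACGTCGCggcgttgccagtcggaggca
Psmb6 (mm9 chr11:70338830-70338858, plus strand): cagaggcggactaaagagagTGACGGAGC
Psmc6 (mm9 chr14:45949252-45949300, plus strand): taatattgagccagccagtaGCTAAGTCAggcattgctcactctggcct
Psmd12 (mm9 chr11:107340592-107340623, plus strand): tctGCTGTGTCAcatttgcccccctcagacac
Psmd7 (mm9 chr8:110112462-110112510, minus strand): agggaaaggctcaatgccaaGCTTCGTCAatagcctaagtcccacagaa
Psmd9 (mm9 chr5:123678148-123678196, plus strand): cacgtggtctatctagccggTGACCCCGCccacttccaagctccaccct

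The stretches before *Psmd11*, the member with the lowest p in both genotypes, and *Psmg1*, which fell in Tet2-/-, held no match to it, nor to CCAAT, nor GAAA and again GAAA with 2 bases between (a form of the interferon-stimulated response element), on either strand, and so carry no capitals.
Psmd11 (mm9 chr11:80241867-80242116, plus strand): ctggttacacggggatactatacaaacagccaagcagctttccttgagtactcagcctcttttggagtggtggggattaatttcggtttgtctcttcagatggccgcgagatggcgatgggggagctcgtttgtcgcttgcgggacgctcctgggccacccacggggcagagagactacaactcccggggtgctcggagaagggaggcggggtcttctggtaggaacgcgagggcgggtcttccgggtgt
Psmg1 (mm9 chr16:96212511-96212760, minus strand): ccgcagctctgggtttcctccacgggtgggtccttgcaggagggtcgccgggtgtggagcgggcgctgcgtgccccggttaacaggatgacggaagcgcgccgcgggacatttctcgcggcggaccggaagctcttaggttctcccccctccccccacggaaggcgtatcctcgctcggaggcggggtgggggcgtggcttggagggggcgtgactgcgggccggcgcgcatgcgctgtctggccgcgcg

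CCAAT stood before 16 members (32.0%) and 35.0% of all genes, and the interferon-stimulated form before 4 members (8.0%) and 3.13% of all genes, but before none of the 3 immunoproteasome genes. A match is a run of letters and not a measured binding site. In the short stretches above, capitals mark TGACNNNGC alone, so the CCAAT match on the other strand before *Psmb2* stays in lower case.

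Genes of factors that act on proteasome genes or on proteasomes were read too, as mRNA. Of these 5 genes, listed as regulators, 2 were called higher and 1 lower after IR in Tet2-/- and 0 in WT (edgeR, 2 at an unadjusted p under 0.05). *Nfe2l2* (NRF2) had FPKM of 25.9, 24.1 and 26.1 in WT baseline, 18.4, 19.4 and 16.2 in Tet2-/- baseline, 29.3, 45.6 and 32.3 in WT IR and 55.9, 60.8 and 29.2 in Tet2-/- IR, and rose by 1.16 ± 0.23 on the log2 scale in Tet2-/- (edgeR adjusted p = 0.00625). Tet2-/- IR replicate 3 was the lowest of its group and stood at about the level of the lowest WT IR library. *Akirin2*, which brings proteasomes into the nucleus, had FPKM of 22.5, 23.6 and 20.8 in WT baseline, 23.5, 25.6 and 24.04 in Tet2-/- baseline, 17.8, 17.3 and 18.7 in WT IR and 19.3, 18.5 and 19.3 in Tet2-/- IR, and fell at -0.61 ± 0.12 in Tet2-/- (edgeR adjusted p = 0.00481).

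Among 23 partner genes (ubiquitin genes, shuttle factors, ligases and deubiquitinases that act with the proteasome), 6 were called higher and 2 lower after IR in Tet2-/-, and 0 in WT (edgeR, 7 at an unadjusted p under 0.05). *Zfand2a*, an arsenite-inducible protein that binds proteasomes, had FPKM of 4.86, 4.75 and 4.54 in WT baseline, 3.46, 3.91 and 3.75 in Tet2-/- baseline, 4.88, 6.94 and 4.11 in WT IR and 13.7, 9.51 and 10.4 in Tet2-/- IR. *Fbxo7*, the F-box protein that binds the inhibitor PI31, had FPKM of 41.03, 47.4 and 44.3 in WT baseline, 44.05, 44.7 and 53.9 in Tet2-/- baseline, 42.5, 36.2 and 41.6 in WT IR and 21.3, 23.4 and 25.5 in Tet2-/- IR. In both the Tet2-/- IR libraries lay outside all others, above for *Zfand2a* and below for *Fbxo7*. In Tet2-/- *Zfand2a* rose by 1.35 ± 0.18 (edgeR adjusted p = 0.00109) and *Fbxo7* fell at -1.28 ± 0.16 (edgeR adjusted p = 0.000766), and both were called in the same direction between genotypes after IR, at 1.001 and -0.88 on the log2 scale (edgeR adjusted p = 0.0353 and 0.0234), the former not without Tet2-/- IR replicate 3 (edgeR adjusted p = 0.0756). Without that library 7 partner genes were called higher and 4 lower after IR in Tet2-/-.

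Of 15 tested genes of antigen processing, which receives the peptides, 5 were called higher and 2 lower after IR in Tet2-/- and 0 in WT (edgeR, 3 at an unadjusted p under 0.05). Without Tet2-/- IR replicate 3 the Tet2-/- counts were 4 and 2, as *H2-K1* did not pass (edgeR adjusted p = 0.0868). The largest changes in Tet2-/- were those of *Ifngr2*, a chain of the interferon-gamma receptor, at 1.94 ± 0.12 (edgeR adjusted p = 9.47e-05), and *Erap1*, a peptide-trimming protease, at 1.30 ± 0.21 (edgeR adjusted p = 0.00252). *Calr* (calreticulin) and *Pdia3*, chaperones that load MHC class I, were lower in Tet2-/- than in WT after IR, at -0.99 ± 0.19 and -0.65 ± 0.15 (edgeR adjusted p = 0.0248 and 0.0457), and without Tet2-/- IR replicate 3 *Pdia3* did not pass (edgeR adjusted p = 0.0528). The median log2 fold change after IR in Tet2-/- was 0.20 over the partner genes, -0.06 over the regulators and 0.73 over the antigen processing genes, beside 0.04 over all genes (0.05, -0.12, 0.39 and 0.04 without Tet2-/- IR replicate 3), and their calls stand beside the same 22.9% higher and 20.3% lower of all genes.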

How the data were processed

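Whole-kidney RNA-seq of 12 mice was analysed in 4 groups of 3. The authors used STAR for alignment to mm9 and HOMER for counts on RefSeq genes (versions not given in the sources used here). They deposited 2 matrices by transcript, expected counts that were not normalized and FPKM. The deposited counts rise in steps of 0.5, 38.7% are not whole, and they were rounded for edgeR and DESeq2. The highest-total transcript stood for each symbol. Members and lists were chosen with earlier results of these data known.

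Each comparison used its own 6 libraries (the interaction all 12), TMM normalization, edgeR's low-count filter, the quasi-likelihood F test (edgeR 4.0.16, R 4.3.3) with p-values adjusted by Benjamini-Hochberg over every tested gene. DESeq2 1.42.0, limma 3.58.1 on log2(FPKM + 1) and log2(FPKM + 0.1), other filters and scalings, a replicate block and leaving out each library were tried. Counts over the lists and of groups that do not overlap were also made without Tet2-/- IR replicate 3, an alternative chosen after seeing the data. Code was tested on simulated data. The labels do not say that equal replicate numbers share a litter or day. In the IR comparisons, same-numbered libraries deviated from their group means together (r across genes 0.344 to 0.349 in WT, 0.120 to 0.350 in Tet2-/-), a pairing read from the data alone. Libraries are separate animals as far as the labels say.

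Named genes were the catalytic, immunoproteasome, activator and tissue-restricted genes, *Psmf1*, *Psmc3ip* and *Psme2b*, per comparison and direction the 4 called members with the lowest p and the member with the largest absolute log2 fold change, members called in the interaction, and the 2 called genes with the largest change per partner list. Coordinates and sequences are of mm9, and copies were found with BLAST 2.17.0. Intervals for single counts are not given, and the tests cover spread between 3 libraries a group.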

Additional observations from a re-analysis of the deposited data

Results flagged for a closer look

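The response of *Psmg1* to IR differed between genotypes by a test of the difference itself (interaction log2 value -0.84, edgeR's quasi-likelihood test, adjusted p = 0.0166, 12 libraries): all 3 WT IR libraries lay above WT baseline and all 3 Tet2-/- IR libraries below Tet2-/- baseline. No gap within a group could be tested, since each group holds 3 libraries.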

How the results depend on the processing

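Members called higher after IR in WT, 2 by the edgeR test, numbered 10 with DESeq2, 4 with library sizes alone, 4 with all 12 libraries in 1 fit, 6 and 8 with limma on log2(FPKM + 1) and log2(FPKM + 0.1), 0 with an absolute log2 fold change over 1, and 0 to 2 when 1 library was left out. In Tet2-/- the 10 higher were 22 with library sizes alone, 23 with either limma fit, 2 with the fold limit and 8 to 14 with a library left out. The 1 lower was 0 with library sizes alone, either limma fit or the fold limit, and 0 to 4 with a library left out (0 without baseline replicate 3, 4 without IR replicate 3). Library sizes alone moved the median log2 fold change of all genes by 0.23 in Tet2-/- (0.04 to 0.27), 0.10 between genotypes after IR and 0.14 in the interaction, so calls there are relative to that shift, and all genes split into 3741 higher and 3313 lower with TMM and 5275 and 2299 without. The 1 member lower in Tet2-/- after IR was 0 with library sizes alone, limma on log2(FPKM + 1), the replicate block or the fold limit, and 0 to 1 with a library left out. The interaction call was 0 only with the fold limit. Other counts stayed within 1.5 times, and no filter on low values changed a call. The causes were not tested.

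With the replicate block (paired libraries), *Psmb5* in WT passed (log2 fold change 0.63, edgeR adjusted p = 0.0459), *Psmg1* after IR did not (-0.65, edgeR adjusted p = 0.0598) and *Psmb9* in Tet2-/- turned to -0.07, and no other named value changed its call. Between genotypes same-numbered libraries did not deviate together at baseline (r from -0.17 to 0.05) or all after IR (-0.00 to 0.30).

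Uncalled values near 0 turned sign. In Tet2-/- IR, *Psmb6*, *Psmb7* and *Psme1* were 0.19, 0.01 and 0.19 with library sizes alone and 0.20, 0.04 and 0.20 with either limma fit, and *Psmb6* was 0.01 with all 12 libraries. *Psmb9* between genotypes after IR was 0.08 with library sizes alone. With 1 library left out, log2 fold changes ran as follows: in WT *Psmb8* -0.14 to 0.31, *Psmb9* -0.39 to 0.30, *Psmf1* -0.03 to 0.14 and *Psmd10* -0.09 to 0.19, in Tet2-/- *Psmb6* -0.28 to 0.10, *Psmb9* -0.27 to 0.41, *Psme1* -0.15 to 0.10 and *Psme2* -0.04 to 0.44, and between genotypes after IR *Psmb9* -0.40 to 0.39.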
